A study of Mus musculus with 12 samples.

Results

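The genes described here carry heme from its making to its breakdown and hold the iron that breakdown sets free. They are the heme oxygenase Hmox1, the biliverdin reductases Blvra and Blvrb, the heme synthesis enzymes Alas1, Alad and Fech, the transporters Abcb6 and Abcb10, and the ferritin subunits Ftl1 and Fth1. Members were all probe sets (groups of short probes that report 1 transcript) that the array's annotation pairs with 1 of these 10 genes and no other. Of 34945 probe sets naming 1 gene, 17 named a member, and they covered 9 of the 10 genes. Ftl1 was represented only by 3 probe sets that also name another gene, so it has no value here. Of the 17 probe sets, 15 passed the filter on low signal (over log2 5 on at least 3 of 12 arrays). The other 2, 1 of Fech and 1 of Abcb10, stood at the lowest value of the data, 2.22, on all 12 arrays.

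The study measured RNA from whole livers of male C57BL/6J mice aged 9 weeks, 1 liver per array, in 4 groups of 3. The conditional knockout (CKO) was Albumin-Cre:Keap1(flox/-), in which Cre driven by the albumin promoter removes Keap1 from hepatocytes, and the null allele is carried in every cell. The controls, labelled WT, were Albumin-Cre:Keap1(flox/+), so they carried Cre and a floxed allele as well. The same Cre can remove that floxed allele from their hepatocytes and leave 1 intact allele. WT is therefore a label for these controls and does not mean an unaltered Keap1 gene. Every deletion comparison is against them, and the effect of this on the changes was not tested. By gavage, both genotypes were given the synthetic triterpenoid CDDO-Im at 30 umol/kg or vehicle alone, which was 10% DMSO and 10% Cremophor-EL in PBS, and all livers were taken 6 h later. Livers called untreated in this text are those given vehicle alone, as no group went without gavage. The comparisons set the genetic loss of Keap1 beside a single dose of a compound that acts on the same protein.

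Keap1 is the adaptor that sends the transcription factor Nrf2 (gene Nfe2l2) to degradation; when it is lost or modified by an electrophile, Nrf2 enters the nucleus and binds antioxidant response elements. Heme oxygenase opens the heme ring to give biliverdin, carbon monoxide and ferrous iron, biliverdin reductases turn the pigment into bilirubin, and ferritin stores the iron in a safe form. In hepatocytes heme is built mainly for cytochromes P450, and its first enzyme, Alas1, is held down by heme itself. Hmox1 is among the best known Nrf2 targets and is also repressed by the heme sensor Bach1.

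The labels were checked first. A Keap1 probe set lay between 7.92 and 8.89 on the 6 WT arrays and between 2.74 and 3.31 on the 6 CKO arrays, in log2 signal. The other, brighter on average, lay between 6.58 and 8.08 in WT and between 6.15 and 6.51 in CKO livers, a difference of -0.68 with deletion under vehicle; where these probes lie relative to the deleted part is not given in the sources. The signal of Nqo1, a standard Nrf2 target, averaged 6.22 in vehicle-treated WT, 9.67 in CDDO-Im-treated WT, 11.08 in vehicle-treated CKO and 10.85 in CDDO-Im-treated CKO livers. Gclc, another target, averaged 12.59, 14.09, 13.74 and 13.69 in the same order. Hepatocyte markers were high throughout, with the mean over 9 of them between 15.08 and 15.27 on every array. Of the 6 erythroid markers with a probe set, Alas2 read 9.31 to 11.40 and is described with the heme synthesis genes; the other 5 stayed below log2 5 on all 12 arrays, and the globin Hba-a1 and the red cell protein Epb42 were at the floor. Arrays of 1 group correlated at 0.9958 or more over all probe sets, and none were identical.

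The bases upstream of an annotated start site are shown for Blvra, Blvrb, Alas1 and Abcb10. The results with Keap1 deletion turn on Blvrb and Abcb10, Blvra is the paralogue of Blvrb, and Alas1 shares a motif with Abcb10. Sequences are from RefSeq (GRCm38.p6), which matched 8 of the 10 genes with 12 windows; Hmox1 and Fech are named only. They are written 5′ to 3′ on the gene's strand. Capitals mark a match to the antioxidant response element core TGACNNNGC or to the palindrome bound by nuclear respiratory factor 1, whose letters are the capitals of the Alas1 and Abcb10 lines. That factor, NRF1 for short, is not Nrf2.
Blvra, chr2:127070537-127070656 (+), bases -120 to -1: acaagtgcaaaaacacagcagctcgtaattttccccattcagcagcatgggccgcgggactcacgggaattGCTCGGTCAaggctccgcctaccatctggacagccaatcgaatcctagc
Blvrb, chr7:27447858-27447977 (+), bases -120 to -1: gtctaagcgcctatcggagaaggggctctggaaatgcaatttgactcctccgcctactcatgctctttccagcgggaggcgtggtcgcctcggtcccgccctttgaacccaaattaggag
Alas1, chr9:106247906-106247935 (-), bases -205 to -176: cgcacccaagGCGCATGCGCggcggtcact
Abcb10, chr8:123983123-123983242 (-), bases -120 to -1: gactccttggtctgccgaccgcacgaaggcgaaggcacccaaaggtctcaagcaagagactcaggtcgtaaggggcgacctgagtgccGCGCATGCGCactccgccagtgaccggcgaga

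Each window ran from 250 bases before to 50 bases after an annotated start, and both strands were searched. The antioxidant response element core matched 12.4% of all 32851 windows and, among the members, that of Blvra alone, on the minus strand at -49. Neither of the 2 Blvrb windows held it, nor did any window of Alas1, Alad, Abcb6, Abcb10, Ftl1 or Fth1. The palindrome matched 0.971% of all windows and the promoters of Abcb10, at -32, and Alas1. The Alas1 match lay at -195 from 1 annotated start and at 29, downstream, from the other. The E-box CACGTG, in 7.15% of all windows, was found in both Alad windows, and CCAAT, in 37.4%, in those of Blvra, Alad, Abcb6, Ftl1 and Fth1. These are matches of letters and not binding sites, and a match elsewhere in the gene would not be seen.

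**Figure D1:**
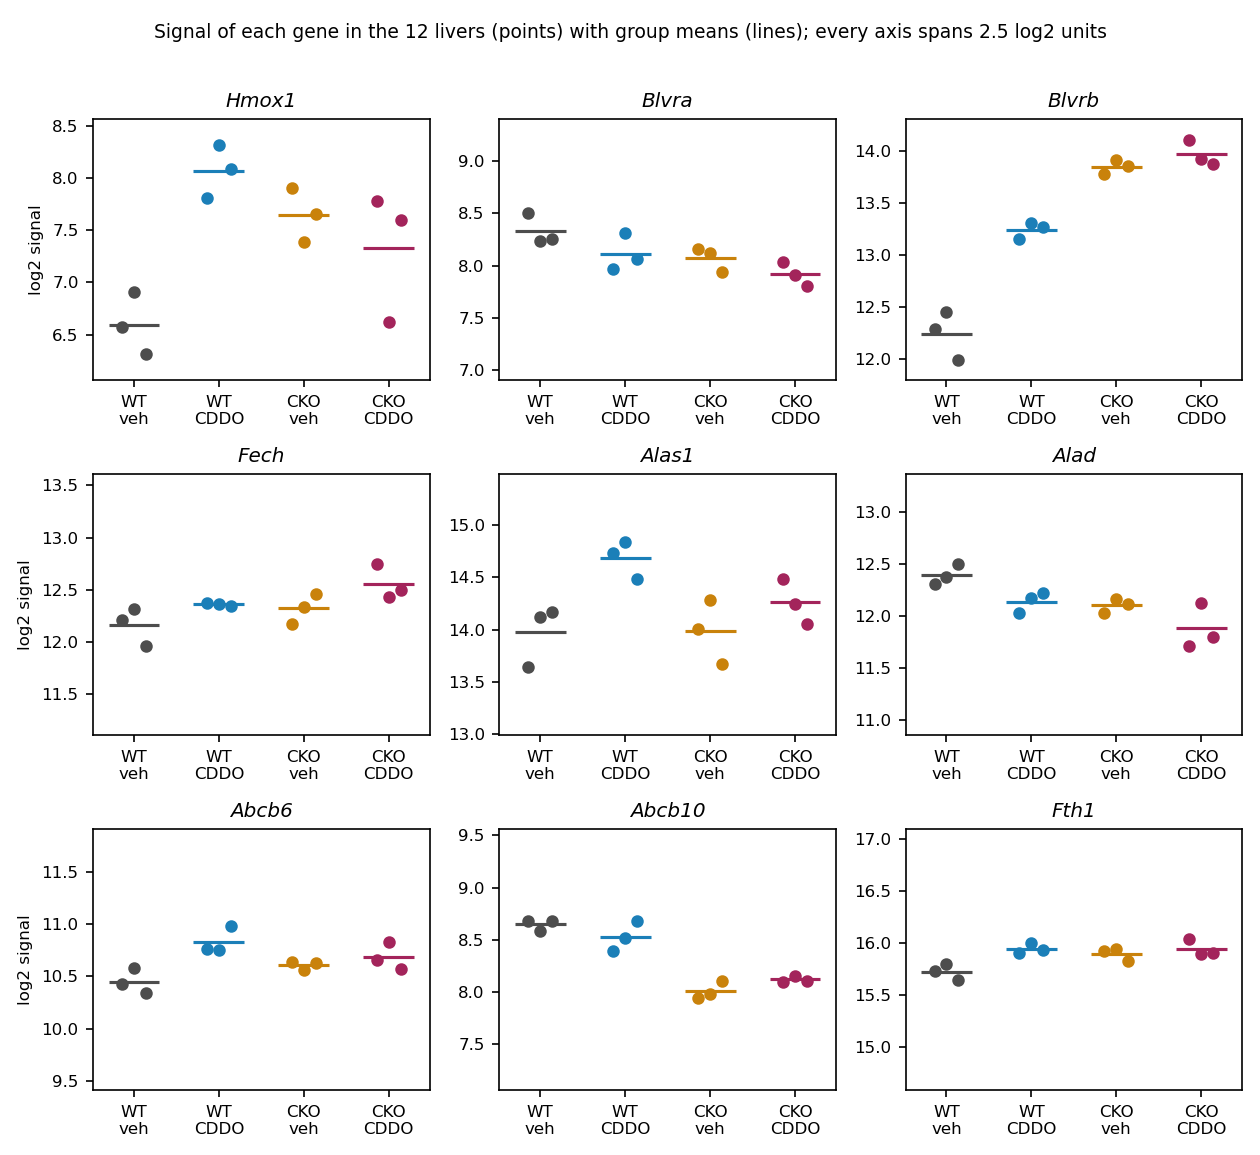
Log2 signal (vertical axis) of the 9 measured genes in each of the 12 livers, by group, with WT for the genetic controls, CKO for the Keap1 knockout, veh for vehicle and CDDO for CDDO-Im. Points are livers and lines are group means of 3. Blvrb was lowest in all 3 vehicle-treated WT livers and above 13.7 in every CKO liver, Abcb10 was below 8.2 in every CKO liver, and Hmox1 was most uneven in the CDDO-Im-treated CKO livers, from 6.62 to 7.77.

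All differences are between group means of log2 signal, with standard errors from limma across all genes and p-values adjusted by the Benjamini-Hochberg method over the 8338 genes tested; a gene was called when its adjusted p was under 0.05. With Keap1 deletion under vehicle 1 of the 9 genes rose (Blvrb) and 1 fell (Abcb10), where 6.51% of all genes were called (3.25% higher and 3.26% lower). With CDDO-Im in WT livers 2 of 9 rose (Hmox1 and Blvrb) and none fell, where 3.65% of all genes were called (1.88% higher and 1.76% lower). Counts of 1 or 2 among 9 genes are too small to set the group apart from those shares. Under CDDO-Im, Keap1 deletion gave 1 rise (Blvrb) and 1 fall (Abcb10) against 1.54% of all genes (0.744% higher and 0.792% lower). Between vehicle-treated CKO and CDDO-Im-treated WT livers Blvrb was higher and Abcb10 lower, against 4.29% (2.42% higher and 1.87% lower). Between treated CKO and untreated WT livers Blvrb rose and Abcb10 and Alad fell, against 8.19% (3.47% higher and 4.73% lower).

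In CKO livers CDDO-Im gave no call among the 9 genes, and none had an unadjusted p under 0.05. Over all genes limma called 0 (0.00%), while 790 of 8338 had an unadjusted p under 0.05; with no filter on low signal the count was 1. Whether the drug's change differed between genotypes was tested for each gene, and none of the 9 passed, where 0.276% of all genes did. In this test 2 of the 9, Hmox1 and Blvrb, had an unadjusted p under 0.05, as did 858 of all 8338 genes.

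Smaller differences were common among the 9. These genes were chosen with earlier results of these data known, so the counts and medians that follow are a description only. With CDDO-Im in WT, 6 genes lay wholly higher in the treated livers and 1 wholly lower, where 23.3% of all genes did not overlap (10.1% higher and 13.1% lower). With deletion 3 lay higher and 3 lower, where 26.3% did not overlap (13.0% higher and 13.3% lower). The median change of the 9 genes was 0.16 with deletion and 0.22 with CDDO-Im in WT, beside -0.01 and -0.02 for all genes tested. Both comparisons share the untreated WT livers, so a deviation in those 3 livers enters both. Of the 15 detected probe sets, tested over 13298, 1 rose and 1 fell with deletion (6.23% of all called, 3.20% higher and 3.02% lower), and 3 rose and none fell with CDDO-Im in WT (3.96% of all, 2.10% higher and 1.86% lower).

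By the brightest probe set of each gene, heme breakdown gave the largest differences with Keap1 deletion under vehicle and with CDDO-Im in WT. They sat in Hmox1 and Blvrb, not in Blvra. A dimmer Alad probe set, described below, differed by -1.23 with CDDO-Im in WT and was not called. Blvrb rose 3.03-fold with Keap1 deletion and 1.99-fold with CDDO-Im in WT livers, and Hmox1 rose 2.78-fold with CDDO-Im in WT livers.

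Hmox1, the inducible heme oxygenase, read 6.57, 6.91 and 6.31 in vehicle-treated WT livers (mean 6.60 ± 0.30, SD, n = 3). CDDO-Im-treated WT livers read 7.81, 8.32 and 8.08 (8.07 ± 0.26, SD, n = 3). The WT groups did not overlap, and every treated liver was above every vehicle liver. Vehicle-treated CKO livers read 7.91, 7.39 and 7.65 (7.65 ± 0.26, SD, n = 3), which also lay above all vehicle-treated WT livers. CDDO-Im-treated CKO livers read 7.77, 6.62 and 7.595 (7.33 ± 0.62, SD, n = 3), so 1 of them fell within the range of untreated controls. The order of the means was CDDO-Im-treated WT, vehicle-treated CKO, CDDO-Im-treated CKO and vehicle-treated WT, and each group overlapped its neighbour in that order.

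In WT livers Hmox1 rose with CDDO-Im by 1.47 ± 0.29 on the log2 scale (SE; adjusted p = 0.0220, limma). The difference with Keap1 deletion under vehicle was 1.05 ± 0.29 (adjusted p = 0.0557), with a 95% interval from 0.42 to 1.69, and did not pass the test. Set directly against CDDO-Im-treated WT livers, vehicle-treated CKO livers differed in Hmox1 by -0.42 (adjusted p = 0.414, interval -1.05 to 0.21), so a larger effect of the drug than of the deletion was not shown. Within CKO livers CDDO-Im gave an Hmox1 difference of -0.32 (adjusted p = 0.759, interval -0.95 to 0.31). The drug's change in CKO minus that in WT was -1.79 ± 0.40 for Hmox1, and it did not pass either (adjusted p = 0.136, limma).

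The Hmox1 calls were sensitive to single livers. The call with CDDO-Im in WT was lost in 4 of the 12 fits that left out 1 array: without WT vehicle 1 (adjusted p = 0.0556), WT vehicle 3 (0.0726), CDDO-Im-treated WT 3 (0.0712) or CDDO-Im-treated WT 4 (0.0867), with changes of 1.33 to 1.63 over all 12 fits. It was also lost with no filter on low signal (adjusted p = 0.102). The Hmox1 difference with deletion passed the test without CDDO-Im-treated CKO 2 (adjusted p = 0.0466) or CDDO-Im-treated CKO 3 (0.0160), arrays outside that comparison that enter its estimate of spread, and after quantile normalization (0.0406).

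Macrophages of the liver, the Kupffer cells, also make Hmox1, so their markers were read beside it. The mean log2 signal over 14 macrophage markers ran from 8.24 to 9.21 in vehicle-treated WT, 8.74 to 8.90 in CDDO-Im-treated WT, 8.79 to 9.35 in vehicle-treated CKO and 8.80 to 9.28 in CDDO-Im-treated CKO livers. Of the 12 tested, 2 rose with Keap1 deletion under vehicle, the scavenger receptor Marco by 2.304 ± 0.46 and the iron exporter Slc40a1 by 0.65 ± 0.09, and 1 with CDDO-Im in WT, Slc40a1 by 0.56 ± 0.09 (log2 change ± SE). Over all genes 3.25% were called higher and 3.26% lower with deletion, and 1.88% and 1.76% with CDDO-Im in WT. The median change of the 12 macrophage markers was 0.26 with deletion and 0.12 with CDDO-Im in WT, beside -0.01 and -0.02 for all genes. Without CKO vehicle 3 Marco was no longer called (adjusted p = 0.0654). Its call was also lost with no filter on low signal (adjusted p = 0.0797) and with only the groups compared in the fit (0.0997, limma). Among 6 tested endothelial markers Lyve1 rose in both, by 2.24 and 2.57. It lost the call in 3 and 2 of 12 fits without 1 array. With no filter on low signal both Lyve1 calls were lost (adjusted p = 0.0880 and 0.0775, limma). The median change of the 6 endothelial markers was -0.11 with deletion and -0.22 with CDDO-Im in WT. Among 5 tested stellate and fibroblast markers Reln fell by 0.51 with deletion, lost in 6 of 12. Markers of neutrophils (6 of 7), lymphocytes (5 of 6) and cholangiocytes (3 of 5) were mostly below log2 5 on all 12 arrays. The part of these cells in the Hmox1 values was not tested, and in whole liver a change in cell number and a change in RNA per cell cannot be told apart.

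Hmox2, the constitutive heme oxygenase, differed by -0.01 with deletion and -0.04 with CDDO-Im in WT, neither called. It is named here for its role and was chosen with its values known.

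Blvrb encodes the biliverdin reductase that also acts as a flavin reductase. Its signal was 12.29, 12.45 and 11.999 in vehicle-treated WT (12.25 ± 0.23, SD, n = 3) and 13.16, 13.31 and 13.27 in CDDO-Im-treated WT livers (13.24 ± 0.08, SD, n = 3). CKO livers read 13.78, 13.91 and 13.85 with vehicle (13.85 ± 0.07, SD, n = 3) and 14.11, 13.92 and 13.87 with CDDO-Im (13.97 ± 0.12, SD, n = 3). The vehicle-treated WT, CDDO-Im-treated WT and CKO livers formed 3 separate steps, and only the CKO groups overlapped each other.

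Blvrb rose with Keap1 deletion by 1.60 ± 0.11 (log2, SE; adjusted p = 4.55e-05) and with CDDO-Im in WT by 0.996 ± 0.11 (adjusted p = 0.00160, limma). Both calls held in every fit without 1 array. The direct comparison put vehicle-treated CKO above CDDO-Im-treated WT by 0.60 ± 0.11 (adjusted p = 0.0215). Keap1 deletion under CDDO-Im raised Blvrb by 0.72 ± 0.11 (adjusted p = 0.0176). In CKO livers the drug's difference was 0.12 (adjusted p = 0.769, interval -0.13 to 0.37), and the drug's change in CKO minus that in WT was -0.87 ± 0.16 (adjusted p = 0.0696), which did not pass.

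The latter Blvrb calls were less secure than the first pair. The direct comparison lost its call without CDDO-Im-treated WT 2 or 3 or CKO vehicle 3 or 4, and the deletion under CDDO-Im without CDDO-Im-treated WT 2 or 3 or CDDO-Im-treated CKO 2 or 3. The highest adjusted p among these fits was 0.0600 for the former and 0.0622 for the latter. The difference of drug changes passed the test for Blvrb after quantile normalization of the arrays (adjusted p = 0.0319) and without WT vehicle 2 (0.0344).

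Blvra encodes the main biliverdin reductase of adult liver and, in the sequences shown above, the promoter with the antioxidant response element core. It read 8.50, 8.23 and 8.26 in vehicle-treated WT, 7.96, 8.31 and 8.06 in CDDO-Im-treated WT, 8.16, 8.12 and 7.94 in vehicle-treated CKO and 8.03, 7.91 and 7.81 in CDDO-Im-treated CKO livers. Untreated WT livers lay above both CKO groups, and the other groups overlapped. Blvra was called in none of the 7 comparisons. Its difference was -0.26 ± 0.12 with Keap1 deletion (adjusted p = 0.220), -0.22 ± 0.12 with CDDO-Im in WT (adjusted p = 0.339) and -0.41 ± 0.12 between treated CKO and untreated WT livers (adjusted p = 0.0536, limma). The 95% interval with deletion, -0.51 to -0.0024, lay wholly below 0, where Blvrb rose.

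**Figure D2:**
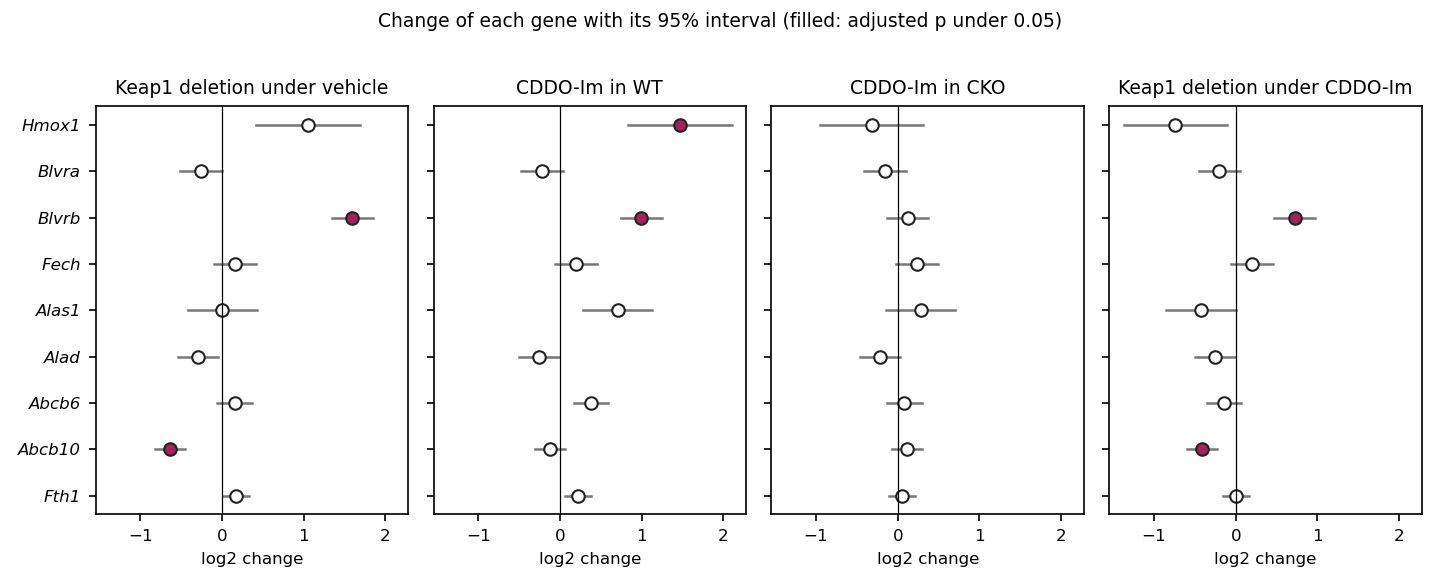
Log2 change (horizontal axis) of each of the 9 genes in 4 comparisons, with 95% intervals from limma; filled points had an adjusted p under 0.05 over 8338 genes. Blvrb was called in 3 panels, Hmox1 with CDDO-Im in WT only, Abcb10 in the 2 deletion panels, and no gene with CDDO-Im in CKO livers.

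Of the heme synthesis enzymes, none was called with Keap1 deletion or with CDDO-Im alone. Alas1, the first and rate-limiting enzyme, had its highest group mean in CDDO-Im-treated WT livers, and Alad, the second enzyme, was lower in treated CKO than in untreated WT livers. Fech, which puts the iron into the ring at the end, differed by small amounts in all 3 of its detected probe sets.

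Alas1 read 13.64, 14.12 and 14.17 in vehicle-treated WT and 14.73, 14.84 and 14.49 in CDDO-Im-treated WT livers, so the drug's group lay wholly above. Vehicle-treated CKO livers read 14.003, 14.28 and 13.67 and CDDO-Im-treated CKO livers 14.49, 14.24 and 14.05. The CKO groups overlapped each other and the untreated WT group. The Alas1 difference with CDDO-Im in WT was 0.71 ± 0.19 (log2, SE; adjusted p = 0.0710, limma), with an interval from 0.28 to 1.13, and did not pass. With Keap1 deletion it was 0.01 ± 0.19 (adjusted p = 0.993, interval -0.42 to 0.43). The direct comparison of vehicle-treated CKO with CDDO-Im-treated WT gave -0.70 ± 0.19 (adjusted p = 0.0648), also short of the threshold. The other Alas1 probe set followed the same course over the 12 arrays (r = 0.98) with a difference of 0.54 with CDDO-Im in WT (adjusted p = 0.120 over 13298 probe sets).

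Alad, which joins aminolevulinate into porphobilinogen, read 12.31, 12.38 and 12.50 in vehicle-treated WT and 12.03, 12.17 and 12.22 in CDDO-Im-treated WT livers. It read 12.03, 12.17 and 12.11 in vehicle-treated CKO and 11.72, 12.13 and 11.80 in CDDO-Im-treated CKO livers. Untreated WT livers were above all the others. Treated CKO livers were lower than untreated WT in Alad by -0.51 ± 0.11 (log2, SE; adjusted p = 0.0188, limma), the 1 comparison in which it fell. That call was lost without WT vehicle 3, CDDO-Im-treated CKO 2 or CDDO-Im-treated CKO 4 (highest adjusted p = 0.0671). It was also lost with no filter on low signal (adjusted p = 0.0613) and with only the groups compared in the fit (adjusted p = 0.0922). With deletion the difference was -0.29 ± 0.11 (adjusted p = 0.142) and with CDDO-Im in WT -0.26 ± 0.11 (adjusted p = 0.231).

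The dimmer Alad probe set agreed only loosely with the brighter (r = 0.50 over 12 arrays). It spread from 7.99 to 9.28 in vehicle-treated WT livers and from 7.24 to 7.76 with CDDO-Im, a difference of -1.23 ± 0.35 (adjusted p = 0.0860 over 13298 probe sets). When all probe sets of a gene were averaged, Alad passed the test with CDDO-Im in WT (-0.74, adjusted p = 0.0488).

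Fech, ferrochelatase, read 12.21, 12.32 and 11.97 in vehicle-treated WT, 12.38, 12.36 and 12.34 in CDDO-Im-treated WT, 12.18, 12.33 and 12.46 in vehicle-treated CKO and 12.75, 12.43 and 12.50 in CDDO-Im-treated CKO livers. The untreated WT group was the lowest and the treated CKO group the highest, without overlap between those groups. Their Fech difference was 0.39 ± 0.12 (adjusted p = 0.0647, limma), and it passed after quantile normalization (0.0352) or centring of the arrays (0.0353). The other detected probe sets gave 0.43 and 0.38 for the same comparison, neither called, where 7.65% of all probe sets were. Probe sets of Fech correlated with each other at 0.77 to 0.90 over the 12 arrays.

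The mitochondrial ABC transporters split. Abcb10, of the inner membrane, is needed for normal heme synthesis in red cell precursors and exports biliverdin in some reports; it fell by 0.64 on the log2 scale with Keap1 deletion. Abcb6, which has been described as a porphyrin transporter, had its highest group mean in CDDO-Im-treated WT livers and was not called.

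Abcb10 read 8.68, 8.58 and 8.68 in vehicle-treated WT livers (8.65 ± 0.06, SD, n = 3). With CDDO-Im WT livers read 8.39, 8.52 and 8.67 (8.53 ± 0.14, SD, n = 3). CKO livers read 7.94, 7.98 and 8.10 with vehicle (8.01 ± 0.09, SD, n = 3) and 8.10, 8.15 and 8.11 with CDDO-Im (8.12 ± 0.03, SD, n = 3). All 6 CKO livers lay below all 6 WT livers, whatever the treatment. The erythroid marker Alas2 was also lower with deletion (-0.89 under vehicle and -0.81 under CDDO-Im, neither called), while the other 5 erythroid markers were below log2 5 throughout, and the part of red cell precursors in the Abcb10 values was not tested.

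The Abcb10 change with Keap1 deletion under vehicle was -0.64 ± 0.08 (log2, SE; adjusted p = 0.00194, limma), which left 64.2% of the WT signal. It held without any 1 array. Under CDDO-Im the deletion's change was -0.41 ± 0.08 (adjusted p = 0.0415), a call lost in 9 of the 12 fits without 1 array (-0.48 to -0.34; highest adjusted p = 0.135, without CDDO-Im-treated WT 3). Vehicle-treated CKO lay below CDDO-Im-treated WT livers by -0.52 ± 0.08 (adjusted p = 0.0100), so by the brighter Abcb10 probe set the deletion and the drug differed. With only those 2 groups in the fit this difference was short of the threshold (adjusted p = 0.0646). The drug's own difference was -0.12 in WT (adjusted p = 0.475, interval -0.30 to 0.06) and 0.11 in CKO (adjusted p = 0.708, interval -0.07 to 0.30).

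The second Abcb10 probe set moved less. It read 7.91, 8.02 and 7.90 in vehicle-treated WT and 7.68, 7.68 and 7.67 in vehicle-treated CKO livers, without overlap. Its difference with deletion was -0.27 ± 0.08 (adjusted p = 0.0717 over 13298 probe sets) and was not called, against -0.64 for the brighter one. Under CDDO-Im its difference with deletion was -0.18 (adjusted p = 0.305), against -0.41 for the brighter one. Between vehicle-treated CKO and CDDO-Im-treated WT livers it was -0.16 (adjusted p = 0.269, limma), not called, against -0.52 for the brighter one.

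Abcb6 read 10.43, 10.58 and 10.34 in vehicle-treated WT, 10.76, 10.75 and 10.98 in CDDO-Im-treated WT, 10.64, 10.56 and 10.63 in vehicle-treated CKO and 10.66, 10.83 and 10.57 in CDDO-Im-treated CKO livers. CDDO-Im-treated WT livers were above both vehicle groups. The Abcb6 difference with CDDO-Im in WT was 0.38 ± 0.10 (adjusted p = 0.0578, limma; interval 0.17 to 0.59), short of the threshold, and it passed after centring (0.0362) or quantile normalization (0.0429). With deletion it was 0.16 ± 0.10 (adjusted p = 0.375).

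Ferritin heavy chain, Fth1, the subunit that oxidizes iron for storage, was among the brightest signals and differed little. Its brighter probe set read 15.73, 15.80 and 15.65 in vehicle-treated WT, 15.91, 16.00 and 15.94 in CDDO-Im-treated WT, 15.92, 15.94 and 15.83 in vehicle-treated CKO and 16.04, 15.90 and 15.90 in CDDO-Im-treated CKO livers. Untreated WT livers were below the other 9, which overlapped. The Fth1 difference was 0.17 ± 0.07 with Keap1 deletion (log2, SE; adjusted p = 0.189) and 0.22 ± 0.07 with CDDO-Im in WT (adjusted p = 0.119, limma). Neither passed.

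The dimmer Fth1 probe set showed the same split, with 13.85, 13.81 and 13.96 in untreated WT livers and 14.08 to 14.22 in the other 9. It rose with CDDO-Im in WT by 0.30 ± 0.07 (adjusted p = 0.0478 over 13298 probe sets) and gave 0.25 ± 0.07 with deletion (adjusted p = 0.0659). With the mean of both probe sets Fth1 passed in both comparisons (adjusted p = 0.0274 with CDDO-Im and 0.0452 with deletion). The highest signal on any array was 17.01, and whether the brightness of the Fth1 signals limited their change was not tested. The light chain, Ftl1, has no value here, as stated.

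**Figure D3:**
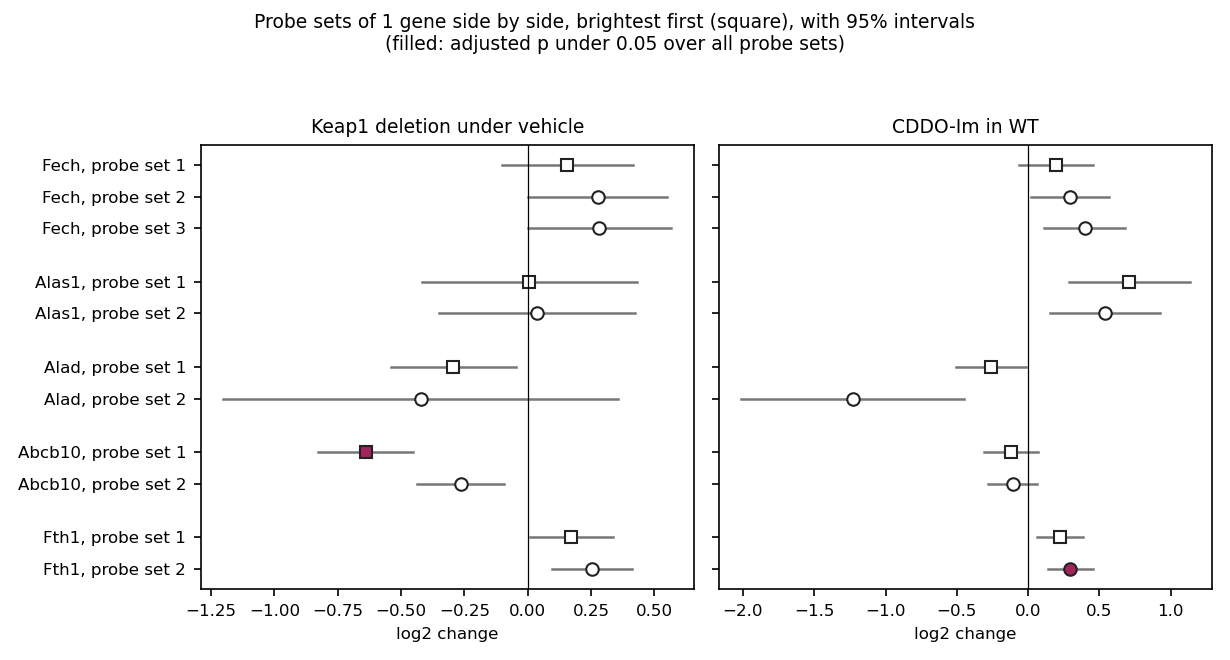
Log2 change (horizontal axis) with Keap1 deletion under vehicle and with CDDO-Im in WT for each detected probe set of the 5 genes that have several, with 95% intervals; squares mark the brightest probe set and filled points an adjusted p under 0.05 over 13298 probe sets. Both Abcb10 probe sets lay below 0 with deletion but only the brighter was called, and both Fth1 probe sets lay above 0 with CDDO-Im but only the dimmer was called.

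Of the other heme synthesis genes, 9 of 13 listed were tested and none was called with Keap1 deletion under vehicle, Keap1 deletion under CDDO-Im, or CDDO-Im in WT or CKO livers, the 4 comparisons made for this and the following lists. With Keap1 deletion the largest difference was in Alas2, the red cell form of the first enzyme, at -0.89 ± 0.38 under vehicle (adjusted p = 0.202) and -0.81 under CDDO-Im (adjusted p = 0.316). Its signal in vehicle-treated CKO livers was 10.44, 9.31 and 11.19, a wide spread, against 11.03 to 11.40 in untreated WT. With CDDO-Im in WT the largest was Tspo, a porphyrin-binding protein of the outer mitochondrial membrane, at 0.43 ± 0.11 (adjusted p = 0.0588). For the lists that follow, 3.25% of all genes were called higher and 3.26% lower with deletion under vehicle. The shares with CDDO-Im in WT were 1.88% and 1.76%.

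Of 13 tested genes of heme transport and binding, 2 rose and 3 fell with Keap1 deletion and 1 rose with CDDO-Im in WT. Slc48a1, which carries heme out of lysosomes into the cytosol, read 8.82, 9.43 and 9.68 in untreated WT, 10.35, 11.08 and 11.14 in CDDO-Im-treated WT and 11.48, 11.29 and 11.17 in vehicle-treated CKO livers. All treated or deleted livers were above all untreated WT livers. Slc48a1 rose by 2.01 ± 0.26 with deletion (adjusted p = 0.00175) and 1.55 ± 0.26 with CDDO-Im in WT (adjusted p = 0.0107, limma; 0.0524 without CDDO-Im-treated WT 4). Also with deletion Pgrmc1, a heme-binding membrane protein, rose by 0.26, and Fabp1, the liver fatty acid binding protein that also binds heme, fell by 0.79, as did Pgrmc2 by 0.60. Lrp1, the hemopexin receptor, fell by 0.48 and is named after its values were seen; as the mean of all its probe sets it gave -0.29 (adjusted p = 0.506). The calls of Pgrmc1, Pgrmc2, Fabp1 and Lrp1 were each lost in 2 to 7 of the 12 fits without 1 array.

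Of 6 tested genes of bilirubin handling 4 rose and none fell with Keap1 deletion, and 2 rose with CDDO-Im in WT. Over all genes 3.25% and 1.88% were called higher in these comparisons. The list was chosen with earlier results of these data known, so its counts are a description only. Gsta2, a glutathione transferase of the family that binds bilirubin in the hepatocyte, rose by 2.78 ± 0.18 with deletion and 2.305 ± 0.18 with CDDO-Im (adjusted p = 2.97e-05 and 0.000477, limma). Abcc3, which exports bilirubin glucuronides to blood, rose by 0.75 ± 0.13 and 0.55 ± 0.13 (adjusted p = 0.00821 and 0.0418), the latter lost in 8 of 12 fits without 1 array. The canalicular exporter Abcc2 rose by 0.69 and the nuclear receptor Nr1i3 by 0.50 with deletion; both are named after their values were seen, and the Nr1i3 call was lost in 6 of 12 fits. Ugt1a1, the enzyme that conjugates bilirubin, and Gsta1 had no probe set of their own and no value.

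Of 16 tested genes of iron uptake, storage and export, only Slc40a1 was called, in both comparisons. Slc40a1, ferroportin, the exporter of cellular iron, read 12.87, 12.97 and 13.04 in untreated WT, 13.51, 13.63 and 13.41 in CDDO-Im-treated WT and 13.63, 13.53 and 13.66 in vehicle-treated CKO livers, again with untreated WT below all. It rose by 0.65 ± 0.09 with deletion (adjusted p = 0.00256) and 0.56 ± 0.09 with CDDO-Im (adjusted p = 0.00851, limma). It stands on the macrophage list as well.

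Among 9 tested regulators 1 rose and 1 fell with deletion and 2 rose with CDDO-Im in WT. Bach1, the heme-sensing repressor of Hmox1, read 9.55, 9.68 and 9.48 in untreated WT, 10.80, 10.69 and 10.64 in CDDO-Im-treated WT and 9.79, 9.66 and 10.28 in vehicle-treated CKO livers. Bach1 rose with CDDO-Im by 1.14 ± 0.14 (adjusted p = 0.00302) and differed by 0.34 with deletion (adjusted p = 0.197, limma). Mafg, the small Maf partner of Nrf2 and Bach1, rose by 0.51 ± 0.09 with deletion and 1.02 ± 0.09 with CDDO-Im (adjusted p = 0.00873 and 0.000477). Under CDDO-Im Mafg was lower in CKO than in WT livers, falling by 0.47 (adjusted p = 0.0320; 5 of 12 fits without 1 array lost the call). Nfe2l2 fell by 0.76 ± 0.14 with deletion (adjusted p = 0.0102), a change of -0.29 (adjusted p = 0.306) as the mean of all its probe sets. The deletion's Mafg call was also lost with that mean (0.42, adjusted p = 0.0985), and both calls with only the groups compared in the fit (adjusted p = 0.0542 for Nfe2l2 and 0.0515 for Mafg).

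Of 12 tested heme-using enzymes 1 rose in each of these comparisons, the tryptophan dioxygenase Tdo2, by 0.34 ± 0.07 in both (adjusted p = 0.0182 and 0.0294, limma). The calls were lost in 3 and 5 of the 12 fits without 1 array. No gene of any of the 6 lists was called with CDDO-Im in CKO livers.

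**Figure D4:**
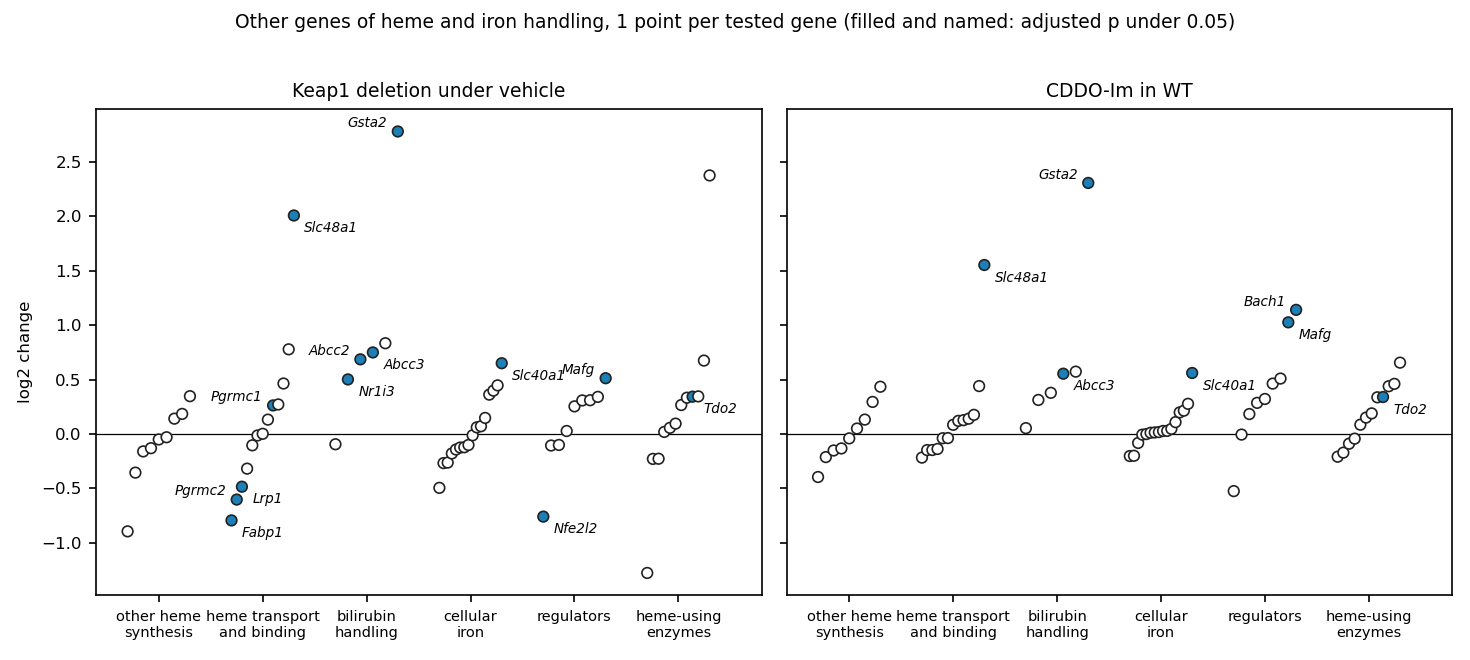
Log2 change (vertical axis) of each tested gene on 6 lists of heme and iron handling, with Keap1 deletion under vehicle (left) and with CDDO-Im in WT (right); filled and named points had an adjusted p under 0.05 over 8338 genes. Gsta2 and Slc48a1 had the largest called rises in both panels, and no heme synthesis gene was called.

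The genes whose signal followed each called member most closely over the 12 arrays were found by Pearson correlation among 8323 tested genes outside the members. These correlations mostly follow the 4 groups and are given as a description, with no test. For Blvrb they were the carbonyl reductases Cbr1 (r = 0.98) and Cbr3 (0.98) and Cds2 (0.97), an enzyme of phospholipid synthesis. For Hmox1 they were C1galt1c1 (r = 0.85), Srxn1 (0.85), the sulfiredoxin that repairs peroxiredoxins, and Hs2st1 (0.84), all looser than for Blvrb. For Abcb10 they were the organic anion transporter Slco1a1 (r = 0.93), Itih2 (0.92) and Nxpe2 (0.92). Slco1a1 differed by -2.16 with deletion and -0.31 with CDDO-Im in WT, the same pattern as Abcb10 with larger values.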

How the data were processed

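RNA from 12 livers was hybridised to Affymetrix arrays, 1 array per liver. The authors deposited log2 signals for 45101 probe sets, which GCRMA 2.12.1 made under R 2.7.0, as the submitters' processing notes list, with settings not given in the sources used here. Deposited values were not normalized again. Control probe sets (64) were left out; 34945 probe sets name 1 gene, 932 several and 9160 none, and 34741 matched the RefSeq table of GRCm38.p6. Each gene was represented by its brightest probe set (18193 genes), and the 8338 genes over log2 5 on at least 3 arrays were tested with limma 3.58.1 in R 4.3.3: 4 group means on 12 arrays, 8 residual and 2.3 prior degrees of freedom, two-sided, Benjamini-Hochberg adjusted p under 0.05. A second fit used 13298 probe sets. The scripts were tested on simulated data. Arrays were grouped and numbered from their titles, and array number limits the precision.

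Named were all members, the checks Keap1, Nqo1 and Gclc, per list and comparison up to 2 called genes by largest rise and 2 by largest fall (where none was called, the largest change), and the 3 genes most like each called member; exceptions are marked. The members and lists were chosen with earlier results of these data known. The alternatives were other filters, normalizations, probe set rules, samples and variance models, each array left out, and the replicate number as a block. The replicate numbers were not taken as pairs.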

Additional observations from a re-analysis of the deposited data

Results flagged for a closer look

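No member met a rule for closer inspection; groups of 3 were too small to examine single livers. Among the genes of the related lists, the drug's change differed between genotypes for 2. Gsta2 changed with CDDO-Im by 2.305 in WT livers, and its drug change in CKO minus that in WT was -2.15 on the log2 scale (adjusted p = 0.0138, limma interaction). Mafg changed by 1.02 in WT livers, and the same difference was -0.98 (adjusted p = 0.0153).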

How the results depend on the processing

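Every called member kept its sign under every alternative tried. With the replicate number as a block, members called went from 2 to 1 with deletion under vehicle, 2 to 1 with CDDO-Im in WT, 2 to 0 with deletion under CDDO-Im and 2 to 1 between vehicle-treated CKO and CDDO-Im-treated WT; Blvrb kept its calls in the first pair (adjusted p = 0.0145 and 0.0363), while Hmox1 (0.147) and Abcb10 (0.0515) lost theirs. The same block cut the calls over all genes from 543 to 55 and from 304 to 114, but the numbers pair nothing that the labels state: deviations of 12 same-numbered pairs of arrays correlated at -0.17 to 0.15 (median 0.06, 3 over 0.1), beside a median of 0.01 for 42 other pairs. With no filter on low signal members called were 1 with CDDO-Im in WT, 0 with deletion under CDDO-Im and 1 between vehicle-treated CKO and CDDO-Im-treated WT. With the mean of a gene's probe sets, undetected ones of Fech and Abcb10 included, they were 5 with CDDO-Im in WT, 1 with deletion under CDDO-Im and, instead of 3, 5 between treated CKO and untreated WT, as with centring. With only the groups compared in the fit they were 1 with deletion under CDDO-Im and 1 between vehicle-treated CKO and CDDO-Im-treated WT. Alad lost its call between treated CKO and untreated WT in that setting (adjusted p = 0.0922, limma). The same Alad call was lost with the block (0.0580) and with no filter on low signal (0.0613). The difference of drug changes called 1 member instead of 0 after quantile normalization, centring, the mean of probe sets or a trended robust variance. Without 1 array at a time, members called ranged from 2 to 3 with deletion under vehicle, 1 to 2 with CDDO-Im in WT, 0 to 2 with deletion under CDDO-Im, 1 to 2 between vehicle-treated CKO and CDDO-Im-treated WT, 2 to 4 between treated CKO and untreated WT, and 0 to 1 for the difference of drug changes. With CDDO-Im in CKO the count was 0 in every setting. Of 1314 values of single members under alternatives, 1220 kept direction and side of the threshold, 39 lost a call, 24 gained one, and 31 changed sign without a call on either side. Over all genes, calls with deletion under vehicle (543), with CDDO-Im in WT (304), with deletion under CDDO-Im (128), between vehicle-treated CKO and CDDO-Im-treated WT (358) and between treated CKO and untreated WT (683) were 232, 124, 29, 119 and 301 with no filter, and 223, 85, 56, 112 and 373 with only the groups compared; the block gave 42, 150 and 351 for the last 3, and the difference of drug changes (23) had 7 calls with no filter and 3 with the block. Of the 13 calls among the 6 related lists with deletion under vehicle, 9 were kept with no filter, 10 with the mean of probe sets and 3 with only the groups compared (Slc48a1, Gsta2 and Slc40a1); of the 7 with CDDO-Im in WT, 5, 7 and 3 (Gsta2, Mafg and Bach1). WT vehicle 1 and CKO vehicle 5 share their numbers with no other array, so the block takes both out of every comparison. It also leaves fewer residual degrees of freedom than the main fit. The causes of the shifts in this section were not tested, and that includes the smaller samples that leaving out arrays makes.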
